A study of Mus musculus with 20 samples.

Results

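The genes described here are 10 markers of the connective tissue frame of the spleen: 6 fibroblast genes (Pdgfra, Pdgfrb, Dcn, Lum, Dpt and Pdpn) and 4 smooth muscle genes (Acta2, Tagln, Myh11 and Des). They were taken by symbol from a table of 54532 genes, all 10 were found, and all 10 passed the filter on low counts that left 18362 tested genes. Counts come from 20 RNA sequencing libraries of whole mouse spleen at age 4 weeks, 11 from control mice and 9 from mice bred on a gluten-free diet. No strain, sex, diet composition or further treatment is given for either group. The library IDs come in 2 forms, plain numbers (8 control and 4 gluten-free libraries) and numbers that follow an S (3 control and 5 gluten-free libraries). The meaning of the letter is not given, so diet was compared over all libraries and within each ID form. Nothing states that each ID is a separate mouse, so the p-values measure the spread between these libraries, which may in part be technical.

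The spleen is held together by a capsule and trabeculae of collagen, elastic fibres and smooth muscle, and by a mesh of reticular fibroblasts that lay down matrix and guide lymphocytes. Platelet-derived growth factor receptors are tyrosine kinases that drive growth and migration of such mesenchymal cells. Decorin, lumican and dermatopontin are secreted proteins that bind collagen fibrils. Smooth muscle contracts through actin and a muscle form of myosin, and many of its genes are activated by serum response factor (SRF), which binds the CArG box, a DNA motif of CC, 6 bases of A or T, and GG.

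Promoter sequences from RefSeq (build GRCm38.p6) were at hand for 5 of the 10 genes, Pdgfra, Dpt, Pdpn, Acta2 and Des. The 250 bases before the RefSeq start of the smooth muscle genes Acta2 (chr19:34255374-34255623, minus strand) and Des (chr1:75360042-75360291, plus strand) are shown because SRF is the textbook regulator of this class. In both genes the RefSeq start lies outside the gene coordinates given below. Capitals mark a CArG box in which 1 of the 6 middle letters may be any base, searched on both strands.
Acta2: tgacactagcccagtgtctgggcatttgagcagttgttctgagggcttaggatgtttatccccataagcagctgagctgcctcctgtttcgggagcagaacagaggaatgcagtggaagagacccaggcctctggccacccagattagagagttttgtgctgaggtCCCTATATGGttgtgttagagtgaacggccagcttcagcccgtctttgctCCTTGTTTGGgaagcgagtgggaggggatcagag
Des: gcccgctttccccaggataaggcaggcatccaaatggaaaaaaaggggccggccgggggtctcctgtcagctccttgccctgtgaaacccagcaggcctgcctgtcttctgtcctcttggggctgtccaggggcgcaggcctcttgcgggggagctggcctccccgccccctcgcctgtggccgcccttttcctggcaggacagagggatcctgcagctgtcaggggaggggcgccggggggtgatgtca
Acta2 held 2 such matches, CCCTATATGG starting 84 bases before the RefSeq start and CCTTGTTTGG starting 34 bases before it, and the Des window held none. The strict box was found in none of the 5 windows of 300 bases (250 before to 50 after the start) and in 1.63% of 32851 mouse promoter windows of the same length, while the form with 1 change was found in 9.98% of them. These are matches of letters and not measured binding.

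Library totals ran from 13626021 to 24268237 counts. The B cell gene Cd79a, which marks lymphocytes of the white pulp, was high in these libraries, at 387 ± 114 CPM (SD, n = 20; CPM is the counts-per-million unit, here scaled by the trimmed mean of M-values, TMM). All 10 genes were counted in every library, with lowest counts between 9 (Lum) and 1322 (Acta2). Compared per kilobase of transcript, Acta2, the actin of smooth muscle, had the highest level, with 69.7 ± 15.6 CPM per kilobase (SD, n = 20), and it lay above the next gene in 20 of 20 libraries. The intermediate filament gene Des followed with 17.1 ± 2.85, Dpt with 16.3 ± 4.52, Dcn with 12.0 ± 5.28, Pdgfrb with 10.3 ± 3.53 and the smooth muscle myosin heavy chain Myh11 with 7.57 ± 1.94 CPM per kilobase. The lowest levels on this scale were those of Pdgfra (2.37 ± 0.628), Pdpn (1.70 ± 0.917), Lum (1.28 ± 0.733) and Tagln (1.02 ± 0.269). Neighbours in this order often changed places: Des exceeded Dpt in 12 of 20 libraries, Dcn exceeded Pdgfrb in 13, and Lum exceeded Tagln in 8.

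The value of Tagln (ENSMUSG00000032085, chromosome 9, 45929619 to 45936058), which encodes the actin-binding protein transgelin, is uncertain. Of its 1988 exonic bases, 62.4% are shared with the antisense gene Gm48529 and 67.9% with any other gene. Reads were counted with a strand setting that is not given, and Tagln (19 to 85 counts per library) and Gm48529 (19 to 75) were counted at like levels. Exons of Pdgfra (6.5%) and Des (5.9%) overlapped only genes with at most 8 counts in any library, and the exons of the other 7 genes overlapped none. Dcn and Lum, both on chromosome 10 on the plus strand, are neighbours with 46984 bases and 0 annotated genes between them.

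Of the cell types and tissues that a spleen sample could also hold, several differed in summed level between the groups, among them red cell precursors, the mesothelium (the outer lining of the capsule), endothelium and adipocytes. The 20 erythroid genes summed to a median of 180903 CPM in control libraries with plain IDs (88898 to 196567), 90153 in gluten-free libraries with plain IDs (59370 to 106444), 213889 in control S libraries (101222 to 214867) and 166392 in gluten-free S libraries (107992 to 189471). The 14 mesothelial genes summed to medians of 158 CPM (103 to 264), 311 CPM (187 to 354), 296 CPM (185 to 362) and 81.8 CPM (47.1 to 251) in the same order. The 12 endothelial genes summed to medians of 672 CPM (565 to 711), 833 CPM (718 to 921), 972 CPM (675 to 1048) and 598 CPM (518 to 848), so that the diet groups with plain IDs did not overlap. The 9 adipocyte genes summed to medians of 127 CPM (66.4 to 185), 123 CPM (101 to 308), 256 CPM (202 to 303) and 110 CPM (104 to 224), and the control groups of the 2 ID forms did not overlap. Digestive enzyme genes of the pancreas stood apart in control 4, with 991 CPM in sum, and in gluten-free S1, with 11075 CPM, against at most 28.5 CPM in any other library. Of 12 skeletal muscle genes, 5 (Myh4, Ckm, Tnnc2, Myl1 and Pvalb) failed the filter on low counts, and of 6 cardiac genes 4 (Myh6, Myh7, Actc1 and Nppa) did.

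**Figure D1:**
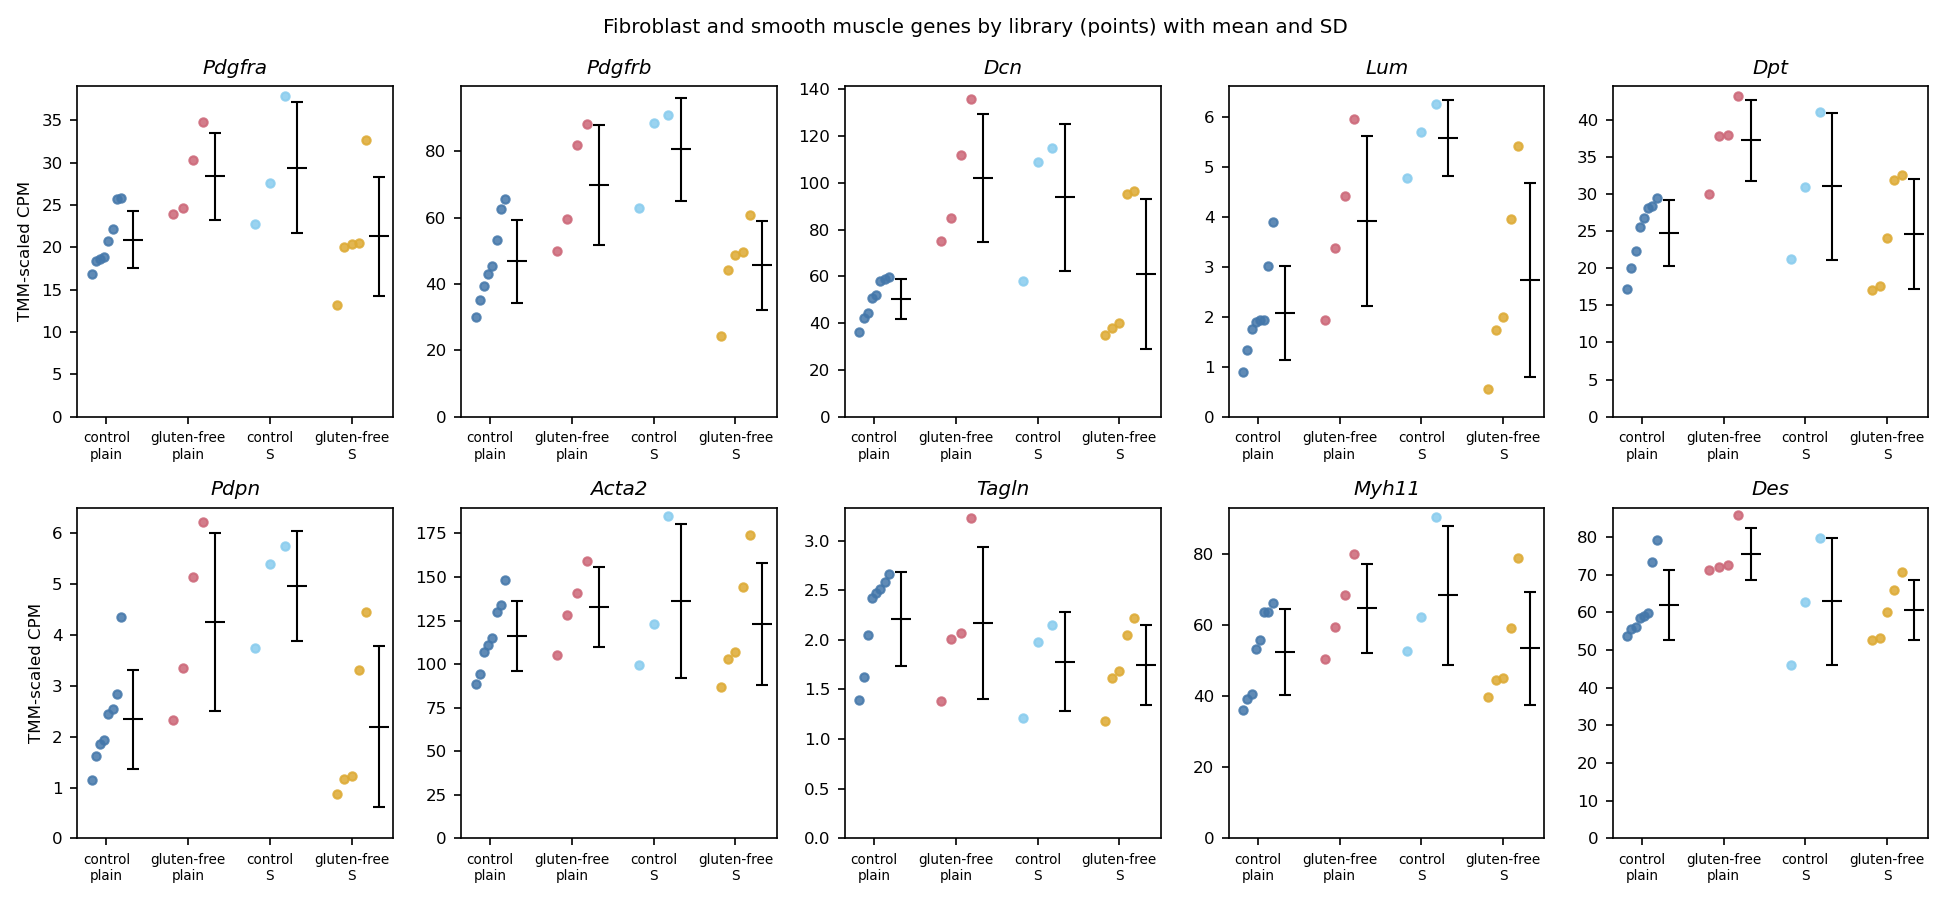
TMM-scaled level (CPM, counts-per-million unit, vertical axes from 0) of each of the 10 genes in each of the 20 libraries (points), by diet and ID form, with the group mean and SD beside them. Dcn and Dpt are higher in each of the 4 gluten-free libraries with plain IDs than in all 8 control libraries with plain IDs, whereas in the S IDs the diet groups overlap in both genes.

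The comparison named in the title of the series sets the gluten-free diet against the control. Over all 20 libraries, with ID form as a term, the diet was not detected in any of the 10 genes. The background was the same, since 0 of 18362 genes (0%) passed an adjusted p of 0.05 in edgeR's quasi-likelihood test, although 4559 had an unadjusted p under 0.05. None of the 10 genes had an unadjusted p under 0.05, and DESeq2, which called 1594 genes, called 0 of the 10. Log2 fold changes, gluten-free minus control, lay between -0.02 ± 0.19 (SE) for Tagln and 0.35 ± 0.25 for Dcn (adjusted p = 0.393). The mean level of Pdgfrb was 56.0 ± 20.2 CPM over the control libraries (SD, n = 11) and 56.4 ± 19.3 CPM over the gluten-free ones (SD, n = 9). Without control 5 and gluten-free S1, or without any single library, 0 of the 10 genes were called.

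Among plain IDs, all 6 fibroblast genes and Des were higher with the gluten-free diet, and the other 3 smooth muscle genes did not pass the test. That is 7 of 10 genes higher and 0 lower, where 17.5% of all tested genes were higher and 22.1% lower. The median log2 fold change was 0.73 over the fibroblast genes and 0.24 over the smooth muscle genes, beside 0.03 over all tested genes. In whole tissue, more or fewer cells of a type and more or less RNA per cell cannot be told apart. The size of the list of changed genes and its split depended on the scaling: with library totals in place of TMM, 6522 genes were higher and 2043 lower, against 3216 and 4050, and the median of all genes moved to 0.31. Relative to that median, the fibroblast genes stood at 0.70 under either scaling and the smooth muscle genes at 0.21, and Acta2 (0.47, adjusted p = 0.0103) and Myh11 (0.57, adjusted p = 0.0155) were then also called.

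The receptor genes differed by moderate amounts. Pdgfra (ENSMUSG00000029231, chromosome 5, 75152292 to 75198215), the receptor for PDGF-A that marks most fibroblasts, had 24.6, 30.3, 34.8 and 23.9 CPM in gluten-free libraries 7, 8, 9 and 10, and between 16.9 and 25.8 CPM (median 19.8) in the 8 control libraries. Only gluten-free 8 and 9 lay above every control library. The diet difference was 0.44 ± 0.13 on the log2 scale (SE, adjusted p = 0.0143). Pdgfrb (ENSMUSG00000024620, chromosome 18, 61045150 to 61085061), the receptor for PDGF-B that also marks pericytes, had 50.1, 88.1, 81.8 and 59.7 CPM in the same gluten-free libraries against 30.1 to 65.5 CPM (median 44.2) in control, with a log2 fold change of 0.58 ± 0.19 (adjusted p = 0.0227). Again 8 and 9 were the libraries above the control range.

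Of the matrix genes, Dcn (ENSMUSG00000019929, chromosome 10, 97479609 to 97518143), which encodes the proteoglycan decorin, had the largest and best resolved difference of the 10 genes. It had 75.1, 136, 112 and 85.1 CPM in gluten-free libraries 7 to 10, while the highest of the 8 control libraries had 59.9 CPM (lowest 36.2, median 51.5). The groups did not overlap, and the log2 difference was 1.02 ± 0.15 (SE, adjusted p = 8.50e-05). Dpt (ENSMUSG00000026574, chromosome 1, 164796644 to 164824266), which encodes dermatopontin, had 30.0, 37.9, 43.2 and 37.8 CPM in gluten-free libraries, just above the control range of 17.2 to 29.5 CPM (median 26.2). Its log2 fold change was 0.59 ± 0.14 (adjusted p = 0.00269). These were the 2 of 10 genes for which every gluten-free library lay above every control library, a pattern found in 6.83% of all tested genes. Lum (ENSMUSG00000036446, chromosome 10, 97565128 to 97572703), the lumican gene, was low and variable, with 1.94, 4.42, 3.38 and 5.96 CPM against 0.891 to 3.89 CPM (median 1.92) in control. Its log2 fold change of 0.91 ± 0.33 (adjusted p = 0.0396) lost its call in 8 of 12 fits that each left out 1 library.

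Pdpn (ENSMUSG00000028583, chromosome 4, 143267431 to 143299564) encodes podoplanin, a surface glycoprotein of reticular fibroblasts, mesothelium and lymphatic endothelium that binds the platelet receptor CLEC-2. It had 2.32, 5.14, 6.23 and 3.35 CPM in the gluten-free and 1.15 to 4.35 CPM (median 2.19) in the control libraries with plain IDs. The groups overlapped, with a log2 difference of 0.87 ± 0.30 (SE, adjusted p = 0.0328) that lost its call in 5 of 12 fits without 1 library. Of 6 partner genes of podoplanin, 3 were higher: Clec1b, which encodes CLEC-2 (0.91 ± 0.19, adjusted p = 0.0011), the tetraspanin gene Cd9 (0.89 ± 0.12, adjusted p = 3.77e-05) and the hyaluronan receptor gene Cd44 (0.28 ± 0.07, adjusted p = 0.0079). Clec1b and Cd9 were named after their values were seen, and the part of platelets in these values was not tested. The linker genes Msn (0.30 ± 0.12, adjusted p = 0.0630) and Ezr (-0.05 ± 0.07, adjusted p = 0.577), which tie podoplanin to the actin skeleton, did not pass.

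The fitted differences of the smooth muscle genes were smaller. Des (ENSMUSG00000026208, chromosome 1, 75360329 to 75368579), which encodes desmin, had 71.9, 85.8, 71.3 and 72.5 CPM in gluten-free libraries 7 to 10 and 53.6 to 79.2 CPM (median 58.7) in control, a log2 difference of 0.29 ± 0.11 (SE, adjusted p = 0.0419). Only gluten-free 8 lay above all control libraries, and the call was lost in 9 of 12 fits that each left out 1 library. Acta2 (ENSMUSG00000035783, chromosome 19, 34241090 to 34255336) had 105, 159, 128 and 141 CPM against 88.6 to 148 CPM (median 113) in control, with a log2 fold change of 0.20 ± 0.13 (adjusted p = 0.239). Myh11 (ENSMUSG00000018830, chromosome 16, 14194535 to 14291372) had 50.6, 80.1, 59.4 and 68.6 CPM against 36.1 to 66.3 CPM (median 54.7), with 0.30 ± 0.16 (adjusted p = 0.154). In both genes the 2 groups overlapped and the difference was within 2 standard errors. The log2 difference of Tagln was -0.01 ± 0.25 (adjusted p = 0.978), while Gm48529, which shares most of its exons, had 0.24 ± 0.21 (adjusted p = 0.384).

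The erythroid genes fell in the same comparison, 20 of 20 of them, with a median log2 fold change of -1.34, while 9 of 14 mesothelial and 4 of 12 endothelial genes rose. With the mean erythroid level as a covariate, 4 of the 7 genes kept their call: Dcn (1.27, adjusted p = 0.0359), Pdgfrb (1.48, adjusted p = 0.0290), Dpt (1.21, adjusted p = 0.0189) and Pdpn (2.67, adjusted p = 0.0191). Pdgfra (0.32, adjusted p = 0.562), Lum (2.21, adjusted p = 0.110) and Des (0.40, adjusted p = 0.333) lost theirs, and the number of genes called in all fell to 881. The covariate itself differed with diet here, with median erythroid sums of 180903 CPM in control and 90153 CPM in gluten-free libraries. This fit therefore separates diet from erythroid level poorly, and the kept calls do not show a difference apart from erythroid level. The fibroblast median rose from 0.73 to 1.38 with the covariate. Over all libraries the same covariate moved that median from 0.08 to -0.20, with 0 genes called. The part of the mesothelium and endothelium in the differences of the fibroblast genes was not tested. Leaving out gluten-free 9 left 2 of the 7 calls, leaving out gluten-free 8 left 3, and leaving out control 2 or control 7 left 4, while Dcn and Dpt were called in 12 of 12 such fits. Without control 4, the library with pancreatic RNA, 5 calls were left.

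**Figure D2:**
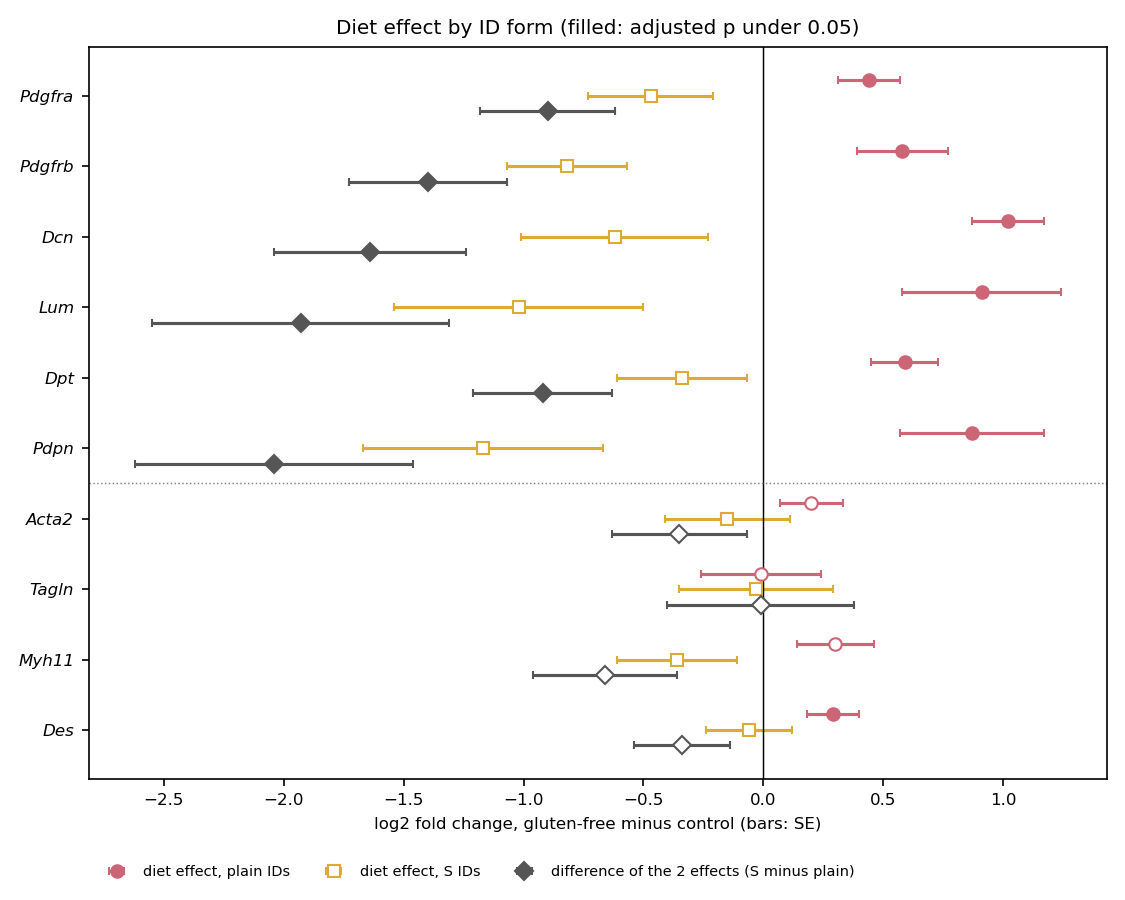
Log2 fold change (gluten-free minus control, horizontal axis, bars show SE) of each gene within the plain IDs, within the S IDs, and their difference; filled symbols have an adjusted p under 0.05 and the dotted line divides fibroblast from smooth muscle genes. The 6 fibroblast genes lie above 0 in the plain IDs, where all are filled, and below 0 in the S IDs, where none is.

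Among S IDs, none of the 10 genes passed the test, and neither did any other gene (0 of 18361, 0%, with 959 at an unadjusted p under 0.05 and 4 called by DESeq2). The fitted differences of the 6 fibroblast genes were all negative, with a median of -0.72 beside 0.01 over all genes, and those of the smooth muscle genes had a median of -0.11. The lowest adjusted p in this comparison was 0.908. With a replicate block over the IDs that both diets share, which leaves 4 libraries, the median of the fibroblast genes was -0.21, and Dcn (0.28, adjusted p = 0.617) and Pdgfra (0.06, adjusted p = 1.00) lay above 0. The median over the 14 mesothelial genes in the S IDs was -1.31 and over the 9 adipocyte genes -1.27, with 0 called in either, and their part in these values was not tested. Pdgfrb had 90.8, 88.4 and 62.8 CPM in control S1, S2 and S6 and 60.9, 48.9, 24.5, 49.6 and 44.1 CPM in gluten-free S1, S3, S5, S6 and S8. It was the 1 gene of 10 whose gluten-free libraries all lay below the control libraries, as 2.05% of tested genes did, with a log2 difference of -0.82 ± 0.25 (SE, adjusted p = 0.908).

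Other fibroblast genes had wide spreads in the S libraries. Dcn had 109, 115 and 57.9 CPM in the control libraries and 96.5, 34.8, 37.9, 95.2 and 40.2 CPM in the gluten-free libraries, so that gluten-free S1 and S6 stood above the other 3. Pdpn showed the same order of gluten-free libraries, with 5.76, 5.40 and 3.74 CPM in control and 4.46, 0.868, 1.17, 3.31 and 1.22 CPM in gluten-free libraries. Lum had 6.26, 4.77 and 5.70 CPM against 5.42, 1.74, 0.556, 3.96 and 1.99 CPM. In these 3 genes S1 and S6 were the highest gluten-free libraries and overlapped the control range or came close to it. Pdgfra had 27.6, 37.8 and 22.7 CPM in control and 32.7, 20.4, 13.2 and 20.5 CPM in gluten-free S1, S3, S5 and S6 (20 CPM in S8), and Dpt had 30.9, 21.2 and 41.0 CPM against 32.6, 24.1, 17.6, 31.8 and 17.0 CPM. Without gluten-free S1, which carried the pancreatic RNA, the median difference of the fibroblast genes was -0.89 and still 0 genes were called.

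Smooth muscle levels in the S libraries varied within each diet group, and the groups overlapped. Acta2 had 123, 99.7 and 185 CPM in control S1, S2 and S6 and 144, 103, 86.9, 174 and 107 CPM in gluten-free S1, S3, S5, S6 and S8. Myh11 had 62.2, 52.7 and 90.4 CPM in control and 59.2, 39.8, 44.7, 78.9 and 45.1 CPM in gluten-free libraries. Des had 62.8, 46.1 and 79.8 CPM against 65.8, 60.0, 52.6, 70.8 and 53.2 CPM. In all 3 genes the library with ID S6 was the highest of its diet group.

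The difference of the diet effect between the ID forms passed the test in all 6 fibroblast genes and in 0 of the 4 smooth muscle genes, and the 2 sets of genes were not tested against each other. The interaction, the effect in S IDs minus that in plain IDs, was below 0 at an adjusted p under 0.05 in 6 of 10 genes, where 9.37% of all tested genes were. It was largest for Pdpn (log2 -2.04 ± 0.58, SE, adjusted p = 0.0156), Lum (-1.93 ± 0.62, adjusted p = 0.0283) and Dcn (-1.64 ± 0.40, adjusted p = 0.00668). Pdgfrb had -1.40 ± 0.33 (adjusted p = 0.00595), Dpt -0.92 ± 0.29 (adjusted p = 0.0258) and Pdgfra -0.90 ± 0.28 (adjusted p = 0.0240). The smooth muscle genes had -0.66 ± 0.30 for Myh11 (unadjusted p = 0.0425, adjusted p = 0.119), -0.35 ± 0.28 for Acta2 (adjusted p = 0.387), -0.34 ± 0.20 for Des (adjusted p = 0.227) and -0.01 ± 0.39 for Tagln (adjusted p = 0.990). The median over the fibroblast genes was -1.52, over the smooth muscle genes -0.34 and over all tested genes -0.02. With library totals in place of TMM, 6 of 10 genes were again called, while the split over all genes turned from 2825 higher and 1720 lower to 1294 and 2650. Of fits that each left out 1 of the 20 libraries, 20 kept the calls of Pdgfrb, Dcn and Pdpn, and 18, 17 and 15 kept those of Pdgfra, Dpt and Lum. The fewest calls, 4, remained without gluten-free 9, control S1 or control S6, and Myh11 was called without gluten-free S6 (-0.84, adjusted p = 0.0298). In the same contrast 15 of 20 erythroid genes were higher (median 1.31), 9 of 14 mesothelial genes lower (median -2.03) and 1 of 9 adipocyte genes lower (median -1.69). The part of these cell types in the interaction was not tested.

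The ID form was also compared within each diet, over the same libraries. In control libraries Dcn (0.90 ± 0.18, SE, adjusted p = 0.0198) and Lum (1.43 ± 0.32, adjusted p = 0.0302) were higher in S than in plain IDs, 2 of 10 genes where 1.64% of tested genes were higher. Pdgfrb (0.79 ± 0.20, adjusted p = 0.0517) and Pdpn (1.09 ± 0.31, adjusted p = 0.0780) missed the threshold. Both calls were lost without control S1 or control S2. In gluten-free libraries Pdgfrb (-0.67 ± 0.23, adjusted p = 0.0414), Dpt (-0.65 ± 0.19, adjusted p = 0.0254) and Des (-0.37 ± 0.11, adjusted p = 0.0262) were lower in S than in plain IDs, 3 of 10 genes where 15.4% of tested genes were lower. None of these 3 calls remained without gluten-free 8, gluten-free 10 or gluten-free S5. The fitted S minus plain differences of the 6 fibroblast genes were all positive in control (median 0.85) and all negative in gluten-free libraries (median -0.66), beside medians of 0.00 and -0.11 over all tested genes. Of the 20 erythroid genes, 18 were higher in S than in plain IDs within gluten-free libraries (median 1.21) and 0 within control (median 0.09), and of the 9 adipocyte genes 2 were higher in S IDs within control (median 1.04). Their part in these values was not tested. These comparisons use the same libraries as the interaction and add no independent evidence.

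The genes also varied within groups, and the fibroblast genes did so together, as did some smooth muscle and mixed pairs. Over the 20 libraries, Pearson's r of log2 CPM (prior count 2) for the 15 pairs of fibroblast genes had a median of 0.74 (0.48 to 0.86), and 14 passed an adjusted p of 0.05 in a permutation test over 45 pairs. The highest was Dcn with Pdpn (r = 0.86, Spearman's rho = 0.87, permutation p = 1e-05, the smallest that 100000 resamples can give, adjusted p = 2e-04). It was 0.83 without gluten-free 8 and control S2, the libraries farthest from the median of Dcn, 0.76 in plain IDs and 0.95 in S IDs. After group means were removed, the median over the 15 pairs was 0.59 (0.22 to 0.81). It was then 0.48 (0.15 to 0.92) over the 6 smooth muscle pairs and 0.40 (-0.26 to 0.84) over the 24 mixed pairs. These within-group values were not tested. The permutation ran over all 20 libraries without regard to group, so its p-values also reflect differences between groups. Pairs of other genes were not examined, so the counts of pairs that passed, here and below, have no background share beside them. Diet, ID form and the make-up of the tissue are shared by the points, so these values describe the libraries and not a regulatory link.

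Smooth muscle genes split into Tagln, whose value is uncertain, and the rest. Tagln had 19 to 85 counts per library and shares 62.4% of its exonic bases with Gm48529, and the part of either in its low r was not tested. Acta2 and Myh11 had the highest r of all pairs (r = 0.91, rho = 0.90, permutation p = 1e-05, adjusted p = 2e-04, and 0.87 without control S6 and gluten-free S6). Acta2 with Des had r = 0.68 (rho = 0.67, permutation p = 0.00103, adjusted p = 0.00273), and it was 0.63 without the same libraries. Tagln had r between 0.08 and 0.33 with the other 3, none past the threshold, and below 0 with Pdgfra, Dcn and Lum. Of 24 pairs of a fibroblast with a smooth muscle gene, 9 passed, with a median r of 0.43 (-0.22 to 0.79). Dpt was the fibroblast gene nearest to muscle, with r = 0.79 to both Acta2 and Des (rho = 0.78 and 0.81, permutation p = 4e-05 and 3e-05), and Pdgfra the farthest, with r = 0.13 to Des (rho = 0.22, permutation p = 0.574).

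**Figure D3:**
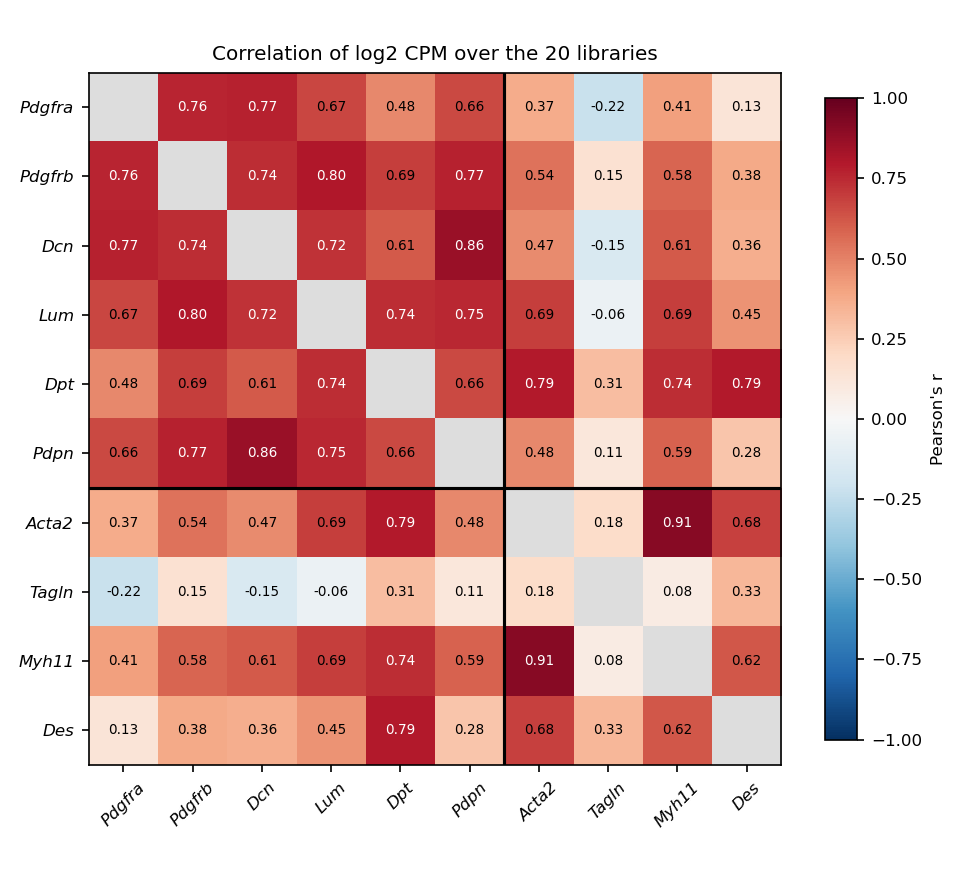
Pearson's r of log2 CPM over the 20 libraries for each pair of genes (colour from -1 to 1, value in each cell), with lines between the fibroblast and the smooth muscle genes. The fibroblast block runs from 0.48 to 0.86, Acta2 with Myh11 reaches 0.91, and the row of Tagln stays between -0.22 and 0.33.

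The mean log2 CPM of the 6 fibroblast genes was 3.73 ± 0.27 (SD, n = 8) in control and 4.45 ± 0.35 (SD, n = 4) in gluten-free libraries with plain IDs, and 4.56 ± 0.18 (SD, n = 3) in control and 3.71 ± 0.66 (SD, n = 5) in gluten-free S libraries. Over the 4 smooth muscle genes it was 4.91 ± 0.21, 5.10 ± 0.17, 4.98 ± 0.40 and 4.84 ± 0.26 in the same order. The lowest fibroblast mean was 2.92 in gluten-free S5, where the smooth muscle mean was 4.61, and the highest was 4.72 in gluten-free 8. Control S2 had the lowest smooth muscle mean (4.57) with a high fibroblast mean (4.62), the only library in which the fibroblast mean was the greater of the pair.

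**Figure D4:**
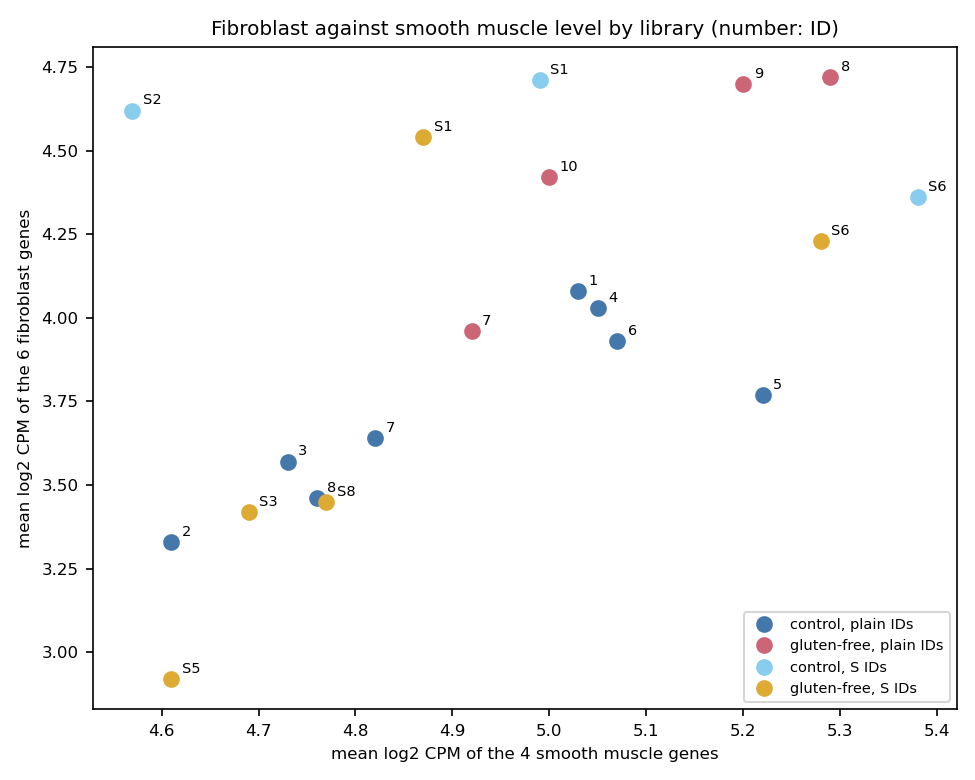
Mean log2 CPM of the 6 fibroblast genes (vertical) against that of the 4 smooth muscle genes (horizontal), 1 point per library, labelled by ID and coloured by diet and ID form. Fibroblast means span 2.92 to 4.72 and smooth muscle means 4.57 to 5.38, and control S2 and gluten-free S5 have nearly the same smooth muscle mean near opposite ends of the fibroblast axis.

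Among 13086 other protein-coding genes whose mean reached 1 CPM, the 5 most like the mean profile of the fibroblast genes over the 20 libraries were Cldn15 (r = 0.97, 3.15 to 16.9 CPM), a claudin of mesothelium, Rnase4 (r = 0.97, 3.58 to 18.4 CPM), Pam (r = 0.96, 28.6 to 71.7 CPM), which amidates peptides, Aebp1 (r = 0.96, 10.1 to 62.5 CPM), a collagen-binding protein, and Ahnak2 (r = 0.96, 0.618 to 7.19 CPM). Those most like the smooth muscle profile were less close: Jph2 (r = 0.84, 2.73 to 8.74 CPM), a junctophilin of muscle membranes, Heyl (r = 0.81, 4.96 to 11.6 CPM), a Notch target, the complement gene C4b (r = 0.81, 132 to 292 CPM), Ssc5d (r = 0.80, 2.29 to 7.07 CPM) and the collagen gene Col5a3 (r = 0.80, 1.17 to 6.34 CPM).

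Genes that act with the fibroblast genes were read from lists chosen by function. Beside each count stand the shares over all tested genes given above: 17.5% higher and 22.1% lower in plain IDs, and 9.37% with an interaction below 0. Of the PDGF ligands, 3 of 4 were higher with the gluten-free diet in plain IDs and none lower: Pdgfb (0.41 ± 0.12, SE, adjusted p = 0.0147), Pdgfa (0.51 ± 0.13, adjusted p = 0.00496) and Pdgfd (0.65 ± 0.22, adjusted p = 0.0282). The interaction was below 0 for Pdgfb (-0.67 ± 0.21, adjusted p = 0.0273) and Pdgfd (-1.17 ± 0.37, adjusted p = 0.0248), and for Pdgfa it was -0.44 ± 0.23 (adjusted p = 0.172). Of 10 genes for TGF-beta ligands, their receptors and latent binding proteins, which govern matrix production, 7 were higher in plain IDs, 0 lower, and 8 had an interaction below 0. Tgfb1 had 0.52 ± 0.10 (adjusted p = 8.95e-04) and an interaction of -0.90 ± 0.18 (adjusted p = 0.00317), Tgfbr2 had 0.42 ± 0.12 (adjusted p = 0.0104), and Ltbp4 had 0.50 ± 0.20 (adjusted p = 0.0562).

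Matrix genes did not all move alike. Of 23 tested genes of a list of other fibroblast matrix genes, 12 were higher in plain IDs, 0 lower, and 12 had an interaction below 0, with a median log2 fold change of 0.55 in plain IDs. Of the 3 with the highest level, the actin-severing Gsn was higher (0.63 ± 0.17, adjusted p = 0.00673), whereas the proteoglycan gene Bgn (0.28 ± 0.13, adjusted p = 0.0904) and Col14a1 (0.23 ± 0.18, adjusted p = 0.329) did not pass. Of 10 collagen genes of stroma, 1 was higher (Col6a1, 0.71 ± 0.21, adjusted p = 0.0129), 1 lower (Col5a1, -0.39 ± 0.13, adjusted p = 0.0223) and 8 did not pass. The share of higher genes was below that over all tested genes, and Col6a1 and Col5a1 were named after their values were seen. The main fibrillar collagens Col3a1 (0.27 ± 0.20, adjusted p = 0.305), Col1a2 (0.31 ± 0.13, adjusted p = 0.0645) and Col1a1 (0.32 ± 0.19, adjusted p = 0.195) were among the 8. Of 8 transcription factors of splenic stroma, 2 were higher on the gluten-free diet within the plain IDs and 0 were lower. Tcf21, which is needed for the spleen to form, was higher (0.47 ± 0.18, adjusted p = 0.0455), and Tlx1 (0.19 ± 0.15, adjusted p = 0.324) did not pass.

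Of 12 genes of white pulp reticular cells, 6 were higher in plain IDs and 0 lower, but 0 had an interaction past the threshold. The B cell chemokine gene Cxcl13 was higher (0.84 ± 0.22, adjusted p = 0.00582), and Cxcl12 (0.13 ± 0.13, adjusted p = 0.423) and the adhesion gene Vcam1 (0.00 ± 0.14, adjusted p = 0.983) did not pass. Their interaction values were -0.65 ± 0.37, -0.73 ± 0.29 and -0.25 ± 0.30.

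Of 21 other smooth muscle contractile genes, 11 were higher in plain IDs, 2 lower, and 12 had an interaction below 0, with a median of 0.37 in plain IDs. The light chain gene Myl9 (0.64 ± 0.14, adjusted p = 0.00177) and the caldesmon gene Cald1 (0.48 ± 0.09, adjusted p = 7.84e-04) were higher, while Tpm1, a tropomyosin gene, had 0.05 ± 0.11 (adjusted p = 0.730). In whole tissue, use of Myl9, Cald1 and Tpm1 in smooth muscle and outside it cannot be told apart. Hspb6, which encodes a small heat shock protein of muscle and was named after its value was seen, was lower (-0.89 ± 0.18, adjusted p = 0.00114). Acta2 and Myh11 thus missed the threshold in a comparison in which Myl9 and Cald1 passed it, and the difference between these genes was not tested. Of 7 genes for SRF and its cofactors, 3 were higher, Mkl1 (0.61 ± 0.09, adjusted p = 9.23e-05), Elk1 (0.45 ± 0.13, adjusted p = 0.0115) and Elk3 (0.32 ± 0.09, adjusted p = 0.00803), the last pair named after their values were seen. Srf itself had 0.19 ± 0.09 (adjusted p = 0.0938) and Elk4 -0.01 ± 0.11 (adjusted p = 0.938). Of 4 other intermediate filament genes, 2 were higher, Vim (0.48 ± 0.10, adjusted p = 0.00127) and Sync (0.93 ± 0.33, adjusted p = 0.0325, named after its value was seen), and Nes (0.10 ± 0.18, adjusted p = 0.671) and Synm (-0.16 ± 0.21, adjusted p = 0.565) did not pass.

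Markers of other cells that share member genes were read beside these. Of 8 tested pericyte genes, 1 was higher in plain IDs (Rgs5, 0.43 ± 0.15, adjusted p = 0.0362), and Notch3 (0.17 ± 0.13, adjusted p = 0.332) and Mcam (0.05 ± 0.12, adjusted p = 0.789) did not pass, a share of higher genes below that over all tested genes. Of 14 mesothelial genes, 9 were higher and 9 had an interaction below 0. Msln, which encodes mesothelin, had 0.88 ± 0.26 (adjusted p = 0.0132) and an interaction of -2.33 ± 0.65 (adjusted p = 0.0140), and Slpi, a protease inhibitor, had 0.75 ± 0.18 (adjusted p = 0.0037) and -1.40 ± 0.36 (adjusted p = 0.00883). Of 12 endothelial genes, 4 were higher in plain IDs, among them Vwf (1.04 ± 0.20, adjusted p = 7.53e-04) and Pecam1 (0.44 ± 0.13, adjusted p = 0.0150), and Plvap had -0.02 ± 0.12 (adjusted p = 0.916). Of 6 lymphatic endothelial genes, Mmrn1 was higher (0.92 ± 0.17, adjusted p = 4.14e-04) and Reln lower (-0.83 ± 0.18, adjusted p = 0.00196). Ccl21a had -1.14 ± 0.93 (adjusted p = 0.341). No list of platelet genes was read, so the part of platelets in the values of the endothelial and lymphatic endothelial genes was not tested. Of 7 tested skeletal muscle genes, 2 were lower, Mylpf (-0.55 ± 0.12, adjusted p = 0.00243) and Acta1 (-1.69 ± 0.63, adjusted p = 0.0424, named after its value was seen), and 0 higher. Tnni2 (0.03 ± 0.21, adjusted p = 0.929) and Tnnt3 (0.27 ± 0.39, adjusted p = 0.605) did not pass. The median over the 7 was -0.22, with 3 of them above 0. Of 2 tested cardiac genes Tnni3 was higher (0.66 ± 0.24, adjusted p = 0.0368), and of 9 adipocyte genes 1 was higher (Lpl, 0.74 ± 0.12, adjusted p = 1.78e-04). The pericyte sums overlapped in all 4 groups, from 87.4 to 130 CPM over the 20 libraries.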

How the data were processed

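Per the submitters' processing notes, the authors used CASAVA, HISAT2 2.0.5 and featureCounts 1.5.0 with build GRCm38 (mm10). The strand setting, the annotation and the handling of multi-mapped reads are not given in the sources used here. Gene coordinates are those of the deposited table, and promoter windows are those of RefSeq. The deposited values are raw counts per gene. The test was the quasi-likelihood F test of edgeR 4.0.16 under R 4.3.3 (two-sided, TMM scaling, default expression filter over the 4 groups of diet and ID form), with Benjamini-Hochberg adjustment over all tested genes and a threshold of 0.05. Each SE was derived from the log2 fold change and its F statistic. Exon overlaps came from GENCODE M21. Chi-square per degree of freedom between libraries of 1 group ran from 5.72 to 95.6 over 47 pairs. The fits were tested on simulated data. The text names the 10 genes, the 5 genes most like each profile and, of each list, genes among the 3 tested with the highest mean CPM, while the other list genes enter only counts, medians and sums. A few genes under this rule are not reported here. The genes and lists were chosen with earlier results of these data known. Alternatives were other scalings, filters, DESeq2 1.42.0, limma-voom (limma 3.58.1), covariates, a replicate block and leaving out libraries. The motif form with 1 change was chosen after the data were seen.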

Additional observations from a re-analysis of the deposited data

Results flagged for a closer look

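The effect of the diet differed between the ID forms in 6 genes by a test of the difference itself, edgeR's interaction term. The log2 differences were -0.90 for Pdgfra, -1.40 for Pdgfrb, -1.64 for Dcn, -1.93 for Lum, -0.92 for Dpt and -2.04 for Pdpn. What the ID form stands for is not given.

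In Des, gluten-free 8, at 85.8 CPM, stood apart from the other 3 gluten-free libraries with plain IDs (71.3 to 72.5 CPM). It was the only library set apart in this way in 30 groups examined, and chance sets apart about 1 in 20.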

How the results depend on the processing

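No fold change of the 10 genes that had passed the test changed sign under any alternative. Over all libraries, the number of genes called was 1 without a filter, 1594 with DESeq2, 1 with limma-voom, 1 without a term for the ID form, and 0 to 3695 when single libraries were left out (3695 without control S6, 2923 without gluten-free S8). In plain IDs the erythroid covariate gave 881 genes and 4 of the 10, and leaving out single libraries gave 2 to 7 of the 10. In S IDs DESeq2 gave 4 genes. In the comparison of ID forms within control, DESeq2 gave 910 genes and 4 of the 10, and leaving out single libraries gave 0 to 941 genes and 0 to 5 of the 10, with 0 without control S1 or S2. Within gluten-free libraries, library totals gave 5 of the 10 and leaving out single libraries 0 to 6. The interaction kept 6 of the 10 under each scaling, filter and test tried and 4 to 7 when single libraries were left out. The causes were not tested.

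Both diets share 4 ID numbers (7, 8, S1 and S6), but nothing states that a number pairs the libraries, and the correlations of their deviations from the group means were -0.17, -0.20, 0.09 and 0.38. A replicate block over these IDs, which uses 4 libraries per ID form, gave 38 genes and 0 of the 10 in plain IDs, where the fibroblast median was 0.88 against 0.73 (Dcn 1.12, Pdgfrb 0.83, Pdpn 1.30, Pdgfra 0.36). In S IDs it gave 103 genes and 1 of the 10 (Pdgfrb, -0.45, adjusted p = 0.0333), the fibroblast median moved from -0.72 to -0.21, and the uncalled values of Dcn (0.28), Pdgfra (0.06) and Acta2 (0.07) turned positive. In plain IDs that of Tagln turned to 0.20. With 4 libraries these block fits measure the spread poorly, and the S fit includes gluten-free S1 with the pancreatic RNA. The smallest adjusted p of the S fit in edgeR's test was 9.12e-312, against 0.908 with all S libraries. Calls of the block fits therefore carry little weight.

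Depth limits the values of Lum, Pdpn and Tagln most, whose lowest counts were 9, 19 and 19.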
